A study of Mus musculus with 16 samples.

Results

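The 10 genes described here encode granule proteins of immature neutrophils and the transcription factor that governs part of their program: Mpo, Elane, Prtn3, Ctsg, Ltf, Camp, Ngp, Lcn2, Fcnb and Cebpe. They were chosen by name for their known role, with no measured value in the rule, and all 10 were among the 22298 genes counted and among the 16817 genes with at least 10 reads over the 16 tumors. Tumors came from wild-type 615-line mice aged 6 weeks that had received 500000 MFC cells, a mouse forestomach carcinoma line, into the peritoneal cavity. The 8 tumors of the vehicle group came from mice given PBS. The 8 of the IL-33 treatment group (below also the treated group) came from mice given IL-33 at 20 μg/kg. Intraperitoneal doses were 2 days apart. Poly(A) RNA of whole abdominal tumors was sequenced, so graft and host cells were read together, and in such bulk RNA fewer cells of a type and less RNA per cell cannot be told apart. The labels give 1 tumor per sample and do not say whether tumors shared a mouse, a cage or a sequencing run.

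Neutrophils make their granules in waves as they mature in the bone marrow. Promyelocytes fill azurophil granules with myeloperoxidase and the serine proteases, myelocytes and metamyelocytes then make specific granules with lactoferrin, cathelicidin and lipocalin under the factor C/EBPε, and gelatinase granules follow. By the time a neutrophil leaves the marrow for tissue most of these transcripts have been switched off, while S100a8, S100a9 and receptor genes such as Cxcr2 remain, so granule transcripts are read as a mark of immature cells. Ltf and Lcn2 are also made by glandular epithelium, and Lcn2 by many inflamed cell types.

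The genes lay in a few places of the mouse genome (GRCm38, GENCODE M21). Camp (chr9:109847379-109849617), Ngp (chr9:110419747-110423012) and Ltf (chr9:111019271-111042767) lay within 1195389 bp of chromosome 9. Prtn3 (chr10:79874476-79883174) lay 3073 bp from Elane (chr10:79886247-79888215) on the same strand. Ctsg (chr14:56099881-56102574) lay between the mast cell protease gene Mcpt8 and the granzyme gene Gzme. Mpo was at chr11:87793581-87804413, Lcn2 at chr2:32384633-32388252, Fcnb at chr2:28076378-28084885 and Cebpe at chr14:54710360-54712174. RefSeq gave promoter sequence (GRCm38.p6) for 9 of the 10, and Cebpe had no entry. The stretches printed are the 4 azurophil enzyme genes, which share a motif, and a pair of specific granule genes. Each runs 5′ to 3′ on the gene's strand from 250 bases before the RefSeq start, and stops where a GENCODE exon begins. Capitals mark GAGGAA, the core read by the myeloid factor PU.1, and TTNNGNAA, a form of the C/EBP site, on either strand. The Mpo stretch lies at chr11:87793534-87793580 (+ strand), Elane at chr10:79886062-79886246 (+), Prtn3 at chr10:79879417-79879613 (+), Ctsg at chr14:56102575-56102824 (−), Ngp at chr9:110419558-110419746 (+) and Ltf at chr9:111019042-111019270 (+).
Mpo: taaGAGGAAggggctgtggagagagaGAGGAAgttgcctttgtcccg
Elane: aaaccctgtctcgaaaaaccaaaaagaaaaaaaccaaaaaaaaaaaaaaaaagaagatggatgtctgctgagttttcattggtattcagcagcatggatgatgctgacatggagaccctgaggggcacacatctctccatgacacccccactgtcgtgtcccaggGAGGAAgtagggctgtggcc
Prtn3: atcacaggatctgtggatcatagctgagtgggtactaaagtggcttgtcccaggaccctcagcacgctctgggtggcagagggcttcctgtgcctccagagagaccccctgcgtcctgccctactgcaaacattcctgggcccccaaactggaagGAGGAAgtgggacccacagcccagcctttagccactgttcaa
Ctsg: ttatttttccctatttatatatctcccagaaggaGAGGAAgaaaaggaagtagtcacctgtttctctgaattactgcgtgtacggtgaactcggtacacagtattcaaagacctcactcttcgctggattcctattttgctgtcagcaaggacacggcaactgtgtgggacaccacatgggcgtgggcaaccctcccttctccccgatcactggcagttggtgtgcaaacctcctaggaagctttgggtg
Ngp: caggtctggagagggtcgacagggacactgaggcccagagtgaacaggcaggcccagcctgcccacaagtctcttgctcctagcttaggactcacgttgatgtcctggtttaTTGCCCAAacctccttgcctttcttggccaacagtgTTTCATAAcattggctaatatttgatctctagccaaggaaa
Ltf: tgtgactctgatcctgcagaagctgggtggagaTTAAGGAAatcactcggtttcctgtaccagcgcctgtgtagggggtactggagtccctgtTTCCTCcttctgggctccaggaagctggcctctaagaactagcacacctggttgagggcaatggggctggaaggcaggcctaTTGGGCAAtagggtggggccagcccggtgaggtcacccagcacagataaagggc

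In the whole 250 bases, GAGGAA was present before 6 of the 9 genes, namely the 4 azurophil enzyme genes, Ltf and Lcn2, against 23.3% of 32851 promoters. TTNNGNAA was present before Ltf, Ngp, Lcn2 and Fcnb, 4 of the 9, against 36.8% of promoters. Neither set of letters was found before Camp. These are matches of letters and were not read as bound sites.

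Library totals lay between 14139268 and 24290794 reads in the vehicle group and between 16569613 and 24288893 in the treated group, and levels are given in CPM, the read count divided by that total and scaled alike in every library. No gene passed an adjusted p of 0.05 by edgeR's quasi-likelihood test, where the smallest adjusted p was 0.418. At unadjusted p under 0.05, 1680 genes (9.99%) were higher and 196 (1.17%) lower in the treated group, and DESeq2 gave 424 and 267. IL-33 replicate 7 stood apart from the other 15 tumors. It carried 1686 CPM of 12 uterus and oviduct genes, against at most 27.5 CPM in any other tumor. Without it 289 genes (1.83%) were higher and 362 (2.29%) lower, again with 0 at an adjusted p of 0.05. Vehicle replicate 4 was highest for mature neutrophil genes (554.6 CPM in sum over 11 genes) and for red cell genes (12805 CPM over 7 genes). The fold changes by edgeR also use a TMM scaling factor for each library, which CPM leaves out. This factor was lowest in vehicle replicate 4 (0.640) and highest in IL-33 replicate 7 (1.24). Ranks of tumors by CPM can change with it. Values without IL-33 replicate 7 are given beside the fold changes and counts of genes that follow.

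Of the 10 genes, 6 were higher in the treated group at unadjusted p (Ltf, Camp, Ngp, Mpo, Elane and Fcnb), 0 were lower, and none passed the adjusted threshold by edgeR or DESeq2. The background of genes higher at the same threshold was 9.99%. Without IL-33 replicate 7, 5 of the 10 were higher, all of the former but Ltf, against a background of 1.83%. The median log2 fold change over the 10 was 2.15, beside 0.06 over all genes tested, and 1.50 without IL-33 replicate 7, beside -0.01. Lcn2, Cebpe, Prtn3 and Ctsg had unadjusted p-values from 0.351 to 0.949. With limma voom and sample quality weights 2 of the 10 were higher at unadjusted p (Camp and Ngp), beside 522 of all 16817 genes tested. The filterByExpr rule of edgeR kept 3 of the 10, of which 1 (Ngp) was higher, beside 498 of all 12800 genes it kept. Levels of the 10 genes were low. Summed over the 16 tumors, the reads ranged from 22 for Fcnb to 6616 for Ltf, with 89 for Cebpe, 90 for Elane, 144 for Camp and 188 for Ctsg.

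**Figure D1:**
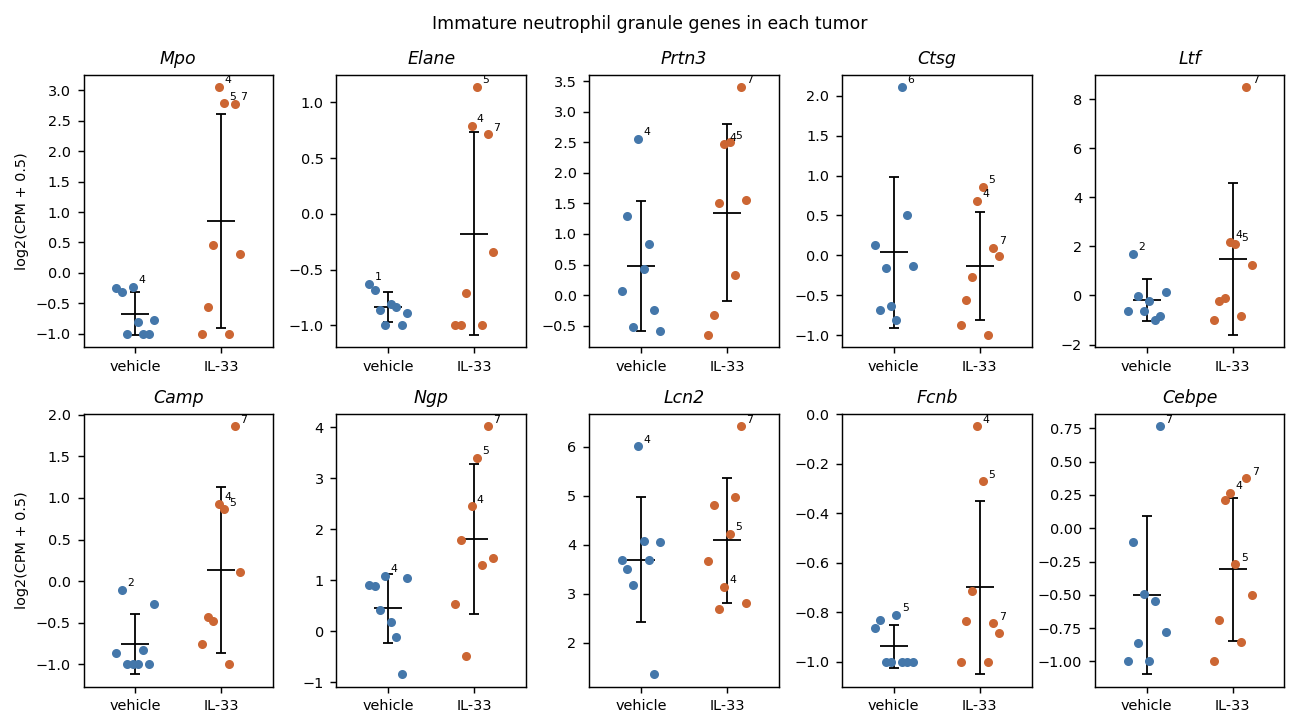
Level of each of the 10 genes in each of the 16 tumors as log2(CPM + 0.5), with a scale of its own in each panel, vehicle in blue and IL-33 in orange. The bar is the mean and the whiskers 1 SD (n = 8), and numbers mark IL-33 replicates 4, 5 and 7 and the highest vehicle tumor, so that the 3 IL-33 tumors can be seen above the rest for Mpo, Elane, Ltf, Camp and Ngp but not for Lcn2 or Cebpe.

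Of the azurophil enzymes, which are made first, 2 of 4 (Mpo and Elane) were higher in the treated group at unadjusted p. Mpo, the myeloperoxidase that makes hypochlorous acid, ran from 0 to 0.354 CPM in vehicle tumors (median 0.0765) and from 0 to 7.83 CPM in treated tumors (median 0.808). Of the 8 IL-33 tumors, 5 were above all vehicle tumors, and replicates 4, 5 and 7 (7.83, 6.42 and 6.38 CPM) held 90.8% of the Mpo reads of the group, while replicates 1 and 6 had 0 reads. Vehicle tumors averaged 0.145 ± 0.161 CPM (SD, n = 8) and treated tumors 2.80 ± 3.42 CPM (SD, n = 8). The log2 fold change was 3.98 (SE 1.28, unadjusted p = 0.00623, adjusted p = 0.418 by edgeR). It was 3.81 without IL-33 replicate 7 (unadjusted p = 0.00610, adjusted p = 0.964 by edgeR), so Mpo did not rest on that tumor. By exact permutation, two-sided, of the difference in mean log2(CPM + 0.5) over the 12870 ways to draw 8 tumors, p was 0.0291, and 0.0476 without replicate 7.

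Elane, neutrophil elastase, was highest in the same 3 tumors. It had at most 3 reads in each vehicle tumor, with a range from 0 to 0.148 CPM (median 0.0555), and ranged from 0 to 1.70 CPM in treated tumors (median 0.199). Replicates 5, 4 and 7 were the highest at 31, 21 and 20 reads, and 3 IL-33 tumors had 0 reads. The groups therefore overlapped at the low end, and 4 of 8 IL-33 tumors were above all vehicle tumors. The log2 fold change was 2.95 (SE 1.10, unadjusted p = 0.0160, adjusted p = 0.418 by edgeR) and 2.77 without replicate 7. The exact permutation p of Elane was 0.0822, and 0.136 without that tumor. The reads of both groups, 81 against 9, gave a ratio of 8.44 after scaling to library totals (95% exact interval 4.23 to 19.1), which covers counting error only and not the spread between tumors.

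Prtn3 and Ctsg, which encode proteinase 3 and cathepsin G, did not separate the groups. Prtn3 ran from 0.165 to 5.38 CPM in vehicle tumors (median 0.695) and from 0.136 to 10.1 CPM in treated tumors (median 2.39). By CPM, IL-33 replicate 7 was highest and vehicle replicate 4 second, above IL-33 replicates 5 and 4 at 5.16 and 5.03 CPM. The log2 fold change of Prtn3 was 0.83 (SE 0.87, unadjusted p = 0.351, adjusted p = 0.789 by edgeR). With IL-33 replicate 7 left out it was 0.45, and with vehicle replicate 4 left out 1.98, where the unadjusted p was 0.0231. Prtn3 shares 159 bp with Plppr3 on the opposite strand, and whether the counting used strand is not given in the sources used here. Plppr3 stood at 40.6 CPM in IL-33 replicate 7 and between 1.95 and 5.09 CPM in all other tumors, and its part in the Prtn3 value of that tumor was not tested.

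Ctsg ran from 0.0706 to 3.82 CPM in vehicle tumors (median 0.403) and from 0 to 1.32 CPM in treated tumors (median 0.411). The highest tumor was vehicle replicate 6, with 62 of the 188 reads, followed by IL-33 replicates 5 and 4 at 1.32 and 1.11 CPM. Its log2 fold change was -0.76 (SE 0.88, unadjusted p = 0.401, adjusted p = 0.816 by edgeR) over all tumors. It was -0.75 when IL-33 replicate 7 was left out and 0.33 when vehicle replicate 6 was. Ctsg was thus the only one of the 10 with a fitted value below 0 over all tumors, and 1 vehicle tumor set that sign.

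The other genes of the azurophil stage, listed by name with earlier results of these data known, gave 1 of 6 higher (Ms4a3) and 0 lower. The shares of all genes were 9.99% and 1.17%. Ms4a3, a marker of granulocyte-monocyte progenitors, had 9 reads each in IL-33 replicates 4 and 7, 7 in replicate 5 and at most 1 in each remaining tumor. Its log2 fold change was 3.12 (unadjusted p = 0.0130, adjusted p = 0.418 by edgeR) and 2.79 without replicate 7. Prss57, a further azurophil protease, stood at -0.12, and at -0.57 without that tumor. The median of the 6 was 0.21, and 0.04 without it, when Ms4a3 was again the 1 higher gene, against 1.83% of all genes. The rest of the list (Ctsc, Srgn, Serpinb1a and Cd63) is expressed by many cell types.

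Among specific granule proteins, Ltf, the iron-binding lactoferrin, had the largest fold change of the 10 and the one most dependent on 1 tumor. It ran from 0 to 2.76 CPM in vehicle tumors (median 0.251) and from 0 to 361.1 CPM in treated tumors (median 1.17). IL-33 replicate 7 alone held 6337 of the 6535 reads of the group, or 97.0%, and the next tumors were IL-33 replicates 4 and 5 at 4.03 and 3.73 CPM. The log2 fold change fell from 6.04 (SE 1.73, unadjusted p = 0.00273, adjusted p = 0.418 by edgeR) to 1.36 without that tumor (unadjusted p = 0.189 by edgeR). The exact permutation p was 0.139 with it and 0.266 without it. In the same tumor Ovgp1, the oviductal glycoprotein, was at 922.5 CPM against 1.41 to 2.83 CPM elsewhere, and Epcam, an epithelial adhesion molecule, at 98.8 CPM. The part of reproductive tract or epithelial RNA in the Ltf value was not tested.

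Camp, the cathelicidin precursor, and Ngp, neutrophilic granule protein, kept an unadjusted p under 0.05 without that tumor (0.0334 and 0.0262 by edgeR). Camp ran from 0 to 0.429 CPM in vehicle tumors (median 0.0247), where 4 tumors had 0 reads, and from 0 to 3.13 CPM in treated tumors (median 0.409). IL-33 replicates 7, 4 and 5 were highest at 55, 24 and 24 reads, and 4 of 8 IL-33 tumors were above all vehicle tumors. Its log2 fold change was 2.78 (SE 1.09, unadjusted p = 0.0207, adjusted p = 0.418 by edgeR), and 2.20 without replicate 7. The exact permutation p of Camp was 0.0274, and 0.0477 without that tumor.

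By CPM, Ngp had more treated tumors above all vehicle tumors than any other of the 10 genes. Dividing CPM by the TMM factors puts vehicle replicate 4 above IL-33 replicates 6 and 8 for Ngp, so this ranking holds for CPM alone. It ran from 0.0572 to 1.63 CPM in vehicle tumors (median 1.09) and from 0.219 to 15.7 CPM in treated tumors (median 2.59), and 6 of 8 IL-33 tumors were above all vehicle tumors. The mean was 0.986 ± 0.579 CPM (SD, n = 8) against 4.89 ± 5.36 CPM (SD, n = 8), or 3.34 ± 3.34 CPM (SD, n = 7) without replicate 7. The exceptions were IL-33 replicate 3, at 4 reads, and replicate 1, at 0.954 CPM. The log2 fold change was 2.07 (SE 0.72, unadjusted p = 0.0108, adjusted p = 0.418 by edgeR) with all tumors and 1.65 without replicate 7. The exact permutation p was 0.0319, and 0.0614 without that tumor.

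Lcn2, the siderophore-binding lipocalin, was the most abundant of the 10 in the vehicle group and did not differ between the groups beyond their spread. Its level per kilobase of exon, which allows genes to be compared, had a median of 4.70 CPM per kb in the vehicle group, beside 0.895 for Ngp, the next gene, and 0.0223 for Mpo. Lcn2 ran from 2.06 to 63.6 CPM in vehicle tumors (median 12.3) and from 5.96 to 84.7 CPM in treated tumors (median 15.1). The extremes were IL-33 replicate 7 and vehicle replicate 4 at the top and vehicle replicate 7 at the bottom. The log2 fold change was 0.04 (SE 0.67, adjusted p = 0.992 by edgeR) over all tumors. It was -0.45 when IL-33 replicate 7 was left out and 1.01 when vehicle replicate 4 was, so leaving out a single tumor could turn its sign.

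Fcnb, the myeloid ficolin of immature cells, and Cebpe, the factor of the specific granule stage, were at the edge of detection. Fcnb had 3 reads over the vehicle tumors, at most 1 in each, and 19 over the IL-33 tumors, of which replicates 4 and 5 held 8 and 6. The ratio of reads scaled to library totals was 5.94 (95% exact interval 1.75 to 31.3, counting error only), and the log2 fold change was 2.22 (SE 1.01, unadjusted p = 0.0414, adjusted p = 0.426 by edgeR). Replicate 7 had only 1 read of it, and without that tumor the fitted value was 2.35 (unadjusted p = 0.0251 by edgeR). Cebpe ran from 0 to 1.20 CPM in vehicle tumors (median 0.134) and from 0 to 0.798 CPM in treated tumors (median 0.268). Vehicle replicate 7 was highest with 21 of the 89 reads, and the log2 fold change was 0.26 (SE 0.96, adjusted p = 0.961 by edgeR), or 0.08 with IL-33 replicate 7 left out.

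**Figure D2:**
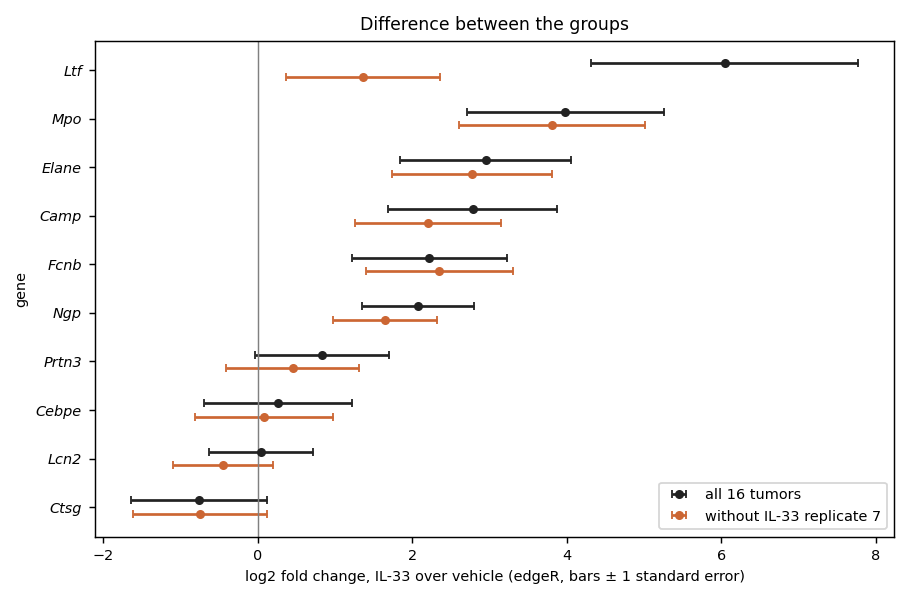
Log2 fold change of each of the 10 genes between the IL-33 and vehicle groups by edgeR, with bars of 1 standard error, for all 16 tumors (black) and without IL-33 replicate 7 (orange). Ltf moves from 6.04 to 1.36 when that tumor is left out, while Mpo gives 3.98 and 3.81.

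Most of the highest values came from the same few tumors. IL-33 replicates 4, 5 and 7 were each among the 3 highest tumors for 8 of the 10 genes. By CPM, replicate 7 was highest for Ltf, Camp, Ngp, Lcn2 and Prtn3, replicate 4 for Mpo and Fcnb, and replicate 5 for Elane. Ctsg and Cebpe were highest in a vehicle tumor each. Dividing CPM by the TMM factors puts vehicle replicate 4 above IL-33 replicate 7 for Lcn2 and Prtn3. The 4 azurophil enzymes summed to 18.2 CPM in replicate 7, 15.2 in replicate 4 and 14.6 in replicate 5, and to at most 5.87 CPM in the vehicle group. The other IL-33 tumors were below that vehicle maximum. Replicates 8 and 3, at 3.95 and 3.66 CPM, were above the vehicle median of 1.44 CPM. Replicate 1, at 0.182 CPM, had the lowest sum of all 16.

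Whether the genes varied together from tumor to tumor was measured for their 45 pairs, by Pearson r and Spearman rho of log2(CPM + 0.5) with 100000 permutations each and Benjamini-Hochberg adjustment over the 45. Of the pairs, 42 had a positive r, 18 an adjusted p under 0.05 by Pearson and 12 of these by both, with a median r of 0.52. Without IL-33 replicate 7, 21 pairs had an adjusted p under 0.05 by Pearson and the median r was 0.44. These included an inverse pair, Lcn2 with Cebpe (r = -0.587, adjusted permutation p = 0.0484). Mpo and Elane varied most closely, with r = 0.965 and rho = 0.758 (adjusted permutation p = 0.000675 and 0.0121). Their r was 0.935 without the 2 tumors farthest from the median of Mpo, 0.973 within the IL-33 group and 0.414 within the vehicle group, where both genes had few reads. Ltf and Camp had r = 0.910 (adjusted permutation p = 0.000675), and 0.914 without IL-33 replicate 7. Camp with Mpo gave r = 0.908 and Mpo with Prtn3 r = 0.817 (adjusted permutation p = 0.00126 for both). The permutations mixed both groups, so a shift between the groups can add to r. On deviations from the group means, Mpo with Elane gave r = 0.956, Ltf with Camp 0.909 and Ngp with Mpo 0.711, the last from 0.795.

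Much of this covariation was the contrast of 3 tumors with the rest. Over the other 13 tumors, without IL-33 replicates 4, 5 and 7, the median r fell to 0.17, 31 of the 45 pairs were positive and 9 were above 0.5. Those 3 were picked after the values had been seen, so no test was made. Ltf with Camp then gave r = 0.82, Mpo with Elane 0.69 and Mpo with Prtn3 0.67. Ctsg had no pair with an adjusted p under 0.05 over the 16 tumors, and its highest r was 0.409, with Elane. Within the IL-33 group Ctsg had r = 0.931 with Elane and 0.926 with Mpo. Within the vehicle group, where Mpo and Elane had few reads, these were -0.063 and -0.495. This was not particular to Ctsg, since Camp with Prtn3 gave 0.898 in the IL-33 group and -0.016 in the vehicle group. Ltf with Camp was high in both (0.924 and 0.799). The difference in r between the groups was not tested. Cebpe also had no pair with an adjusted p under 0.05 over the 16 tumors, although it is the factor of the specific granule stage. Its highest r was 0.521, with Prtn3. Lcn2 had 1 such pair, with Ngp (r = 0.618, adjusted permutation p = 0.0277), and this r was 0.442 without IL-33 replicate 7.

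**Figure D3:**
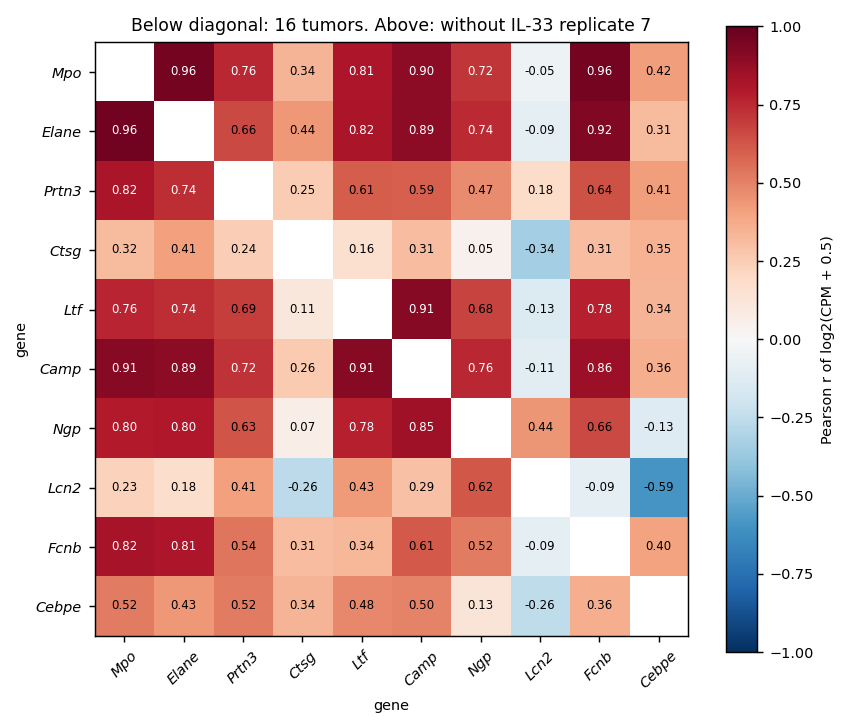
Pearson r of log2(CPM + 0.5) for the 45 pairs of the 10 genes, over 16 tumors below the diagonal and without IL-33 replicate 7 above it, with red for positive and blue for negative values. Mpo, Elane, Ltf, Camp and Ngp form a block of high values (Mpo with Elane 0.96 over 16 tumors), whereas pairs of Lcn2, Ctsg or Cebpe run from -0.26 to 0.62 over 16 tumors.

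Most genes of mature neutrophils did not follow. Of 11 such genes, 1 (Mxd1) was higher and 0 lower at unadjusted p, against 9.99% and 1.17% of all genes, and their median log2 fold change was -0.18. Without IL-33 replicate 7, 2 were higher, Mxd1 among them, and 0 lower, against 1.83% and 2.29% of all genes, with a median of -0.07. S100a8, a calprotectin subunit, ran from 7.16 to 104.8 CPM in vehicle tumors (median 12.3) and from 8.36 to 38.6 CPM in treated tumors (median 14.8), with vehicle replicate 4 highest. In IL-33 replicates 4, 5 and 7, S100a8 stood between 10.1 and 16.6 CPM, within the vehicle range. S100a9, the partner subunit, had a log2 fold change of -1.32 (adjusted p = 0.485 by edgeR), and -1.28 without IL-33 replicate 7. It stood at 249.0 CPM in vehicle replicate 4 and between 11.1 and 61.2 CPM in all other tumors of both groups. Other specific and gelatinase granule genes gave 0 of 12 tested higher and 0 lower, with a median of -0.10 and a range from -1.49 for Wfdc21 to 1.47 for Hp. The counts were the same without IL-33 replicate 7, with a median of -0.16. Hp, haptoglobin, was at 2215 CPM in IL-33 replicate 7, and its log2 fold change was -0.41 without it. The gelatinase gene Mmp9 was at -0.65 and the collagenase gene Mmp8 at 0.71 over all tumors, or -0.98 and 0.86 without that tumor, and neither passed in either case.

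Over the 110 pairs of the 10 granule genes with the 11 mature neutrophil genes, a set compared after the values had been seen, none had an adjusted p under 0.05 over 16 tumors. Those that did without IL-33 replicate 7 included 4 of Lcn2, with Retnlg (r = 0.834), Il1r2 (0.798), S100a8 (0.788) and S100a9 (0.714). They also included Ngp with Il1r2 (r = 0.727). With that tumor included, Lcn2 and S100a8 had r = 0.624 (adjusted permutation p = 0.309).

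**Figure D4:**
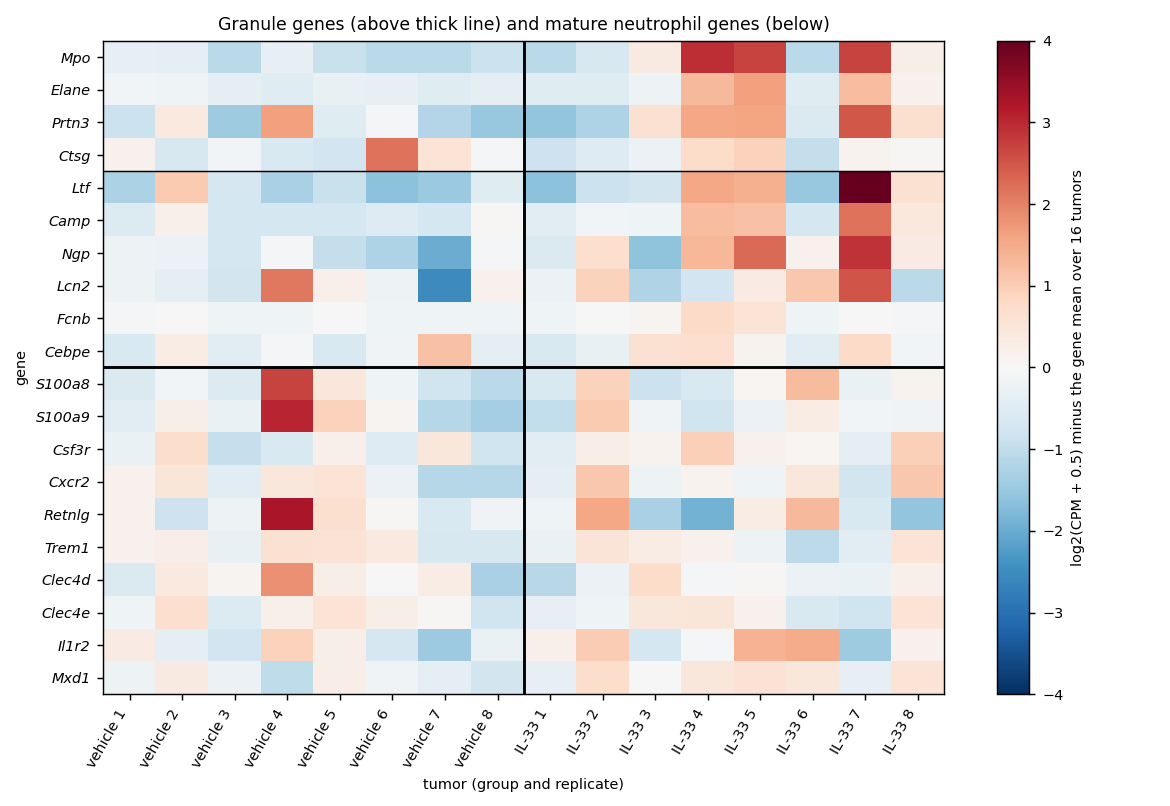
Level of the 10 granule genes (above the thick line, azurophil enzymes first) and of 10 mature neutrophil genes (below) in each tumor, as log2(CPM + 0.5) minus the mean of the gene over the 16 tumors, cut at 4 either way, with red for higher and blue for lower. IL-33 replicates 4, 5 and 7 are red for Mpo, Elane, Ltf, Camp and Ngp, while S100a8, S100a9 and Retnlg are reddest in vehicle replicate 4.

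Genes that act on granule formation or on the released proteins were read from lists made by name, with earlier results of these data known. Beside the counts that follow, 9.99% of all genes were higher and 1.17% lower at unadjusted p under 0.05. Without IL-33 replicate 7 these shares were 1.83% and 2.29%. Of 16 regulators of granulopoiesis, 1 was higher (Csf2rb, a receptor chain for GM-CSF) and 1 lower (Cebpd), with a median log2 fold change of 0.20, and without IL-33 replicate 7 none passed in either direction. Gfi1, a repressor needed for neutrophil maturation, stood at 0.12, and 0.17 without that tumor. Of 10 protease inhibitors tested, 1 was higher (A2m, 2.33), which was -0.23 without that tumor, where none of the 10 passed. Slpi, the secretory inhibitor of elastase, was at 356.8 ± 150.2 CPM in the vehicle group and 355.9 ± 128.8 CPM in the treated group (SD, n = 8 each). Of 9 receptors of granule proteins, 1 was higher (Slc22a17, a receptor for lipocalin 2, at 2.76), and it was -0.18 without replicate 7. In that case 1 of the 9 was higher, Itgam, an integrin chain of myeloid cells (0.74, unadjusted p = 0.0446 by edgeR). Lists of other cells were also counted, higher and lower in turn. Uterus and oviduct genes gave 10 and 0 of 12, and 0 and 0 of the 10 that could be tested without IL-33 replicate 7. Epithelial genes gave 7 and 0 of 10, and without that tumor 0 and 2 of 8 (Krt18 and Cldn3 lower). Mast cell and basophil genes gave 1 and 1 of 8 (Kit higher, Mcpt8 lower), and 0 and 1 without it. Eosinophil genes gave 1 and 0 of 5 in both cases (Prg2). Monocyte and macrophage genes gave 0 and 0 of 8, and 1 and 0 without it (Ly6c2). Red cell genes gave 0 and 4 of 7, and 0 and 6 without it.

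The genes most like the 10 were sought among 13104 others with a mean of at least 1 CPM, by the mean of their r with the 10 genes over 16 tumors. This is a description over the same libraries, with no test. The highest was Igkv1-117, an immunoglobulin light chain variable gene, at a mean r of 0.67, then Tox2 at 0.63 and Ighv1-52, a heavy chain variable gene, at 0.62. Igkv1-117 gave r = 0.956 with Elane and 0.900 with Mpo, and stood at 111.1 CPM in IL-33 replicate 5, 30.3 in replicate 7 and 22.5 in replicate 4, where no other tumor exceeded 4.48 CPM. The rest of the first 10 were Adgb, Ighv1-72, Derl3, Cacna1e, Cadm4, Edn1 and Tent5c, of which 6 peaked in IL-33 replicate 7. When it was left out, Ighv14-4, Igkv1-117 and Ighv1-52 led. Variable genes have near-identical copies, so each is uncertain as a single gene.

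Over the 16 tumors, the genes outside the block had other neighbours. Ctsg was most like Gzmg (r = 0.851), Gzmd (0.837) and Gzmf (0.792), granzyme genes that lie beside it on chromosome 14 in the order Mcpt8, Ctsg, Gzme, Gzmd, Gzmg and Gzmf. Vehicle replicate 6, the highest tumor for Ctsg, was also highest for Gzmg at 69.2 CPM, where the other tumors had between 1.35 and 17.2 CPM. Within the vehicle group Ctsg and Gzmg had r = 0.958 and within the IL-33 group 0.675. The granzyme genes resemble each other and the share of reads between them is uncertain. Of the mast cell protease genes on its other side, Mcpt8 gave r = 0.444 and Mcpt4 0.0624 with Ctsg. Cebpe was most like Ear2 (r = 0.914), a ribonuclease gene of eosinophils and some macrophages, then Plac8 and Pla2g16, and gave r = 0.803 with Siglecf, the eosinophil lectin. With Ccr3, also on the eosinophil list, r was 0.516 and rho 0.118. Vehicle replicate 7, highest for Cebpe, was also highest for Siglecf at 1.03 CPM. Of the eosinophil granule genes, Prg2, the major basic protein gene, had a log2 fold change of 2.87 (unadjusted p = 0.0188, adjusted p = 0.418 by edgeR), and 2.55 without IL-33 replicate 7. Its r with Cebpe was 0.627 and its rho 0.772 over 16 tumors, and r was 0.543 without that tumor. Epx, the eosinophil peroxidase gene, was at 0 in all vehicle tumors and at most 0.234 CPM in a treated tumor.

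Ltf was most like Tox2, Epcam and Cacnb2, all highest in IL-33 replicate 7. With Epcam it gave r = 0.954 over 16 tumors and 0.757 without that tumor. Ltf with Ovgp1 gave r = 0.882 over 16 tumors and 0.0213 without it. Lcn2 with Epcam gave 0.364, and -0.446 without it. Prtn3 was most like Alpl (r = 0.806), Apoc1 and Lrrc51, and Lcn2 most like Dyrk1b (0.896), Ankzf1 and Acbd4.

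**Figure D5:**
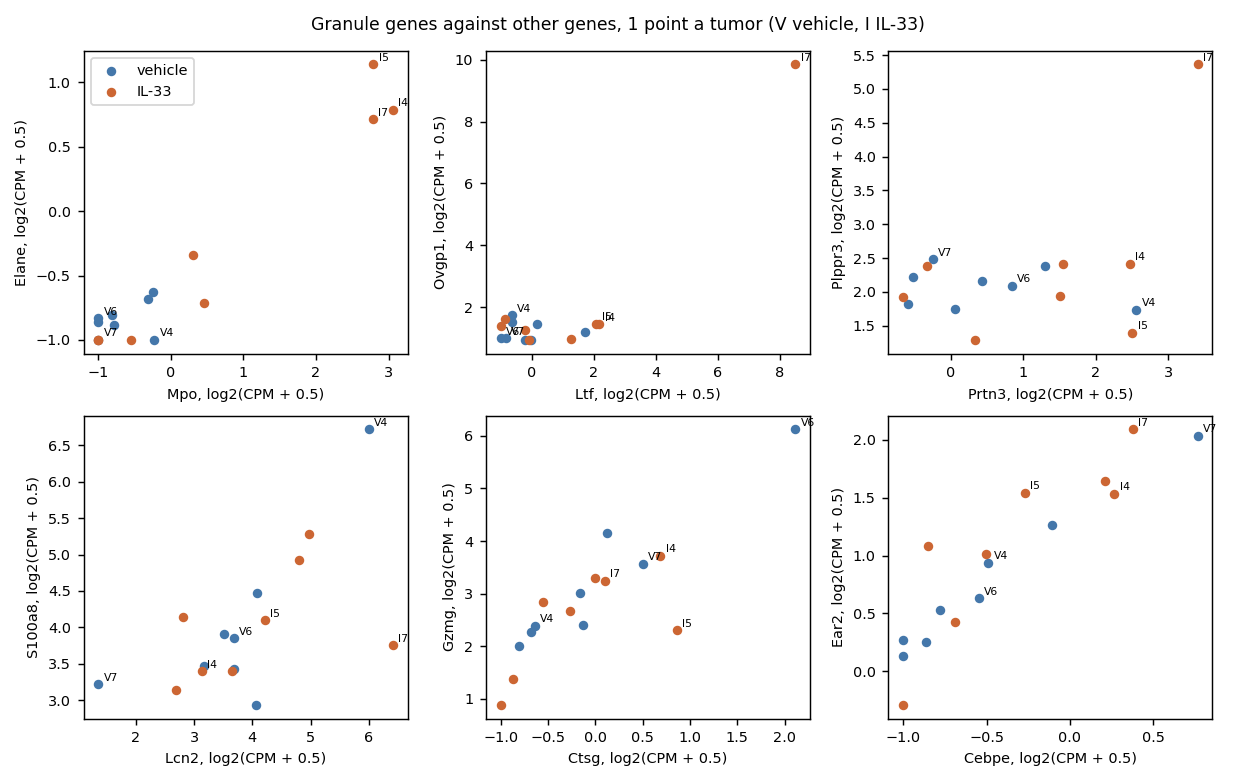
Each point is 1 tumor (vehicle blue, IL-33 orange, V or I with the replicate number), and both axes are log2(CPM + 0.5). Mpo and Elane rise together in IL-33 replicates 4, 5 and 7, Ltf with Ovgp1 and Prtn3 with Plppr3 are parted by IL-33 replicate 7 alone, Lcn2 follows S100a8 except in that tumor, Ctsg follows Gzmg up to vehicle replicate 6, and Cebpe follows Ear2.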

How the data were processed

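The authors deposited, for each of 16 tumors, raw counts of reads per gene, without normalization. Submitters' processing notes name HISAT2, featureCounts and mm10; versions, strand and annotation release are not given in the sources used here. Symbols came from GENCODE M21 for 22255 of 22298 genes, and the 43 unnamed genes held 0.00434% of counts. Genes with at least 10 counts over all tumors were tested with edgeR 4.0.16 (TMM, glmQLFit, glmQLFTest, R 4.3.3) with Benjamini-Hochberg adjustment over all genes tested. Single genes were also tested by exact permutation (SciPy 1.17.1) of log2(CPM + 0.5). Alternatives were DESeq2 1.42.0, upper-quartile factors, library totals, filterByExpr, no filter, limma 3.58.1 voom with quality weights, a replicate block and each tumor left out. On simulated counts with the spread of these tumors, edgeR recovered 118 of 200 changed genes out of 16514, among them 76 whose change was 4-fold, and made 4 false calls. The changed genes all had more reads than Fcnb, Cebpe, Elane, Camp or Ctsg, so this recovery does not cover genes at such levels. No 2 libraries agreed within sampling noise. The named genes were the 10 members, the extremes and defining markers of each list, chromosome neighbours, and the genes most correlated with the members. Genes, lists and tests were chosen with earlier results of these data known. The labels give no separate mice, cages or batches, so p-values measure the spread between these tumors. Values of 1 mature neutrophil gene are not reported here.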

Additional observations from a re-analysis of the deposited data

Results flagged for a closer look

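In 3 of 20 groups of 8 tumors (10 genes in 2 groups), the highest tumor stood apart on log2(CPM + 0.5), its gap to the next tumor divided by the range of the group being above Dixon's 95% critical value for 8 samples. For normally distributed values, chance would flag at most about 1 group in 20. Many of these values lay near 0 reads, so that rate may not apply here. Ltf in IL-33 replicate 7 (361.1 CPM, 6337 reads, next tumor 4.03 CPM) gave 0.665. Ltf in vehicle replicate 2 (2.76 CPM, 45 reads, next tumor 0.618 CPM) gave 0.571. Ctsg in vehicle replicate 6 (3.82 CPM, 62 reads, next tumor 0.915 CPM) gave 0.552.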

How the results depend on the processing

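No gene, and none of the 10, passed an adjusted p of 0.05 in the main comparison or in any of 24 alternatives. Of 16817 genes tested, those higher at unadjusted p numbered 424 with DESeq2, 522 with voom and 246 with the replicate block. With filterByExpr 498 of 12800 were higher. Without IL-33 replicate 7 and vehicle replicate 4, 330 of 15744 were higher and 329 lower. Lower genes numbered 101 with library totals, 444 with voom and 72 with the block. With 1 tumor left out, 289 to 1902 genes were higher and 111 to 362 lower, the extremes at 289 and 362 without IL-33 replicate 7. Of the 10 granule genes, 1 was higher with filterByExpr (Ngp), which kept only Ngp, Prtn3 and Lcn2, and 2 with voom (Camp and Ngp). The replicate block left 1 (Mpo, unadjusted p = 0.0497 by edgeR), and exact sign flips of same-numbered differences left 0 below 0.05, where the permutation test gave 3 and between 1 and 5 with a tumor left out. Replicate numbers did not pair the tumors: same-numbered deviations correlated at -0.318 to 0.351 and 1 of 8 tumors correlated best with its own number. Leaving out a tumor took the log2 fold change of Lcn2 from -0.45 to 1.01 (below 0 in 10 of 16), that of Ctsg from -1.20 to 0.33 and the log2 difference of Ctsg from -0.31 to 0.12. Ltf ranged from 1.36 to 7.07 and passed in 15 of 16. Fcnb passed in 9 of 16, and DESeq2 gave it an unadjusted p of 0.0748. DESeq2 gave Ltf a log2 fold change of 2.08. With voom Ltf was 0.90 and Elane 0.57. Prtn3 gave 1.61 without IL-33 replicate 7 and vehicle replicate 4 (unadjusted p = 0.0463 by edgeR). The causes were not tested. At these depths genes of a few reads, such as Fcnb, Elane and Cebpe, are limited by counting error.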
